A study of Homo sapiens with 6 samples.

Results

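CC chemokines are small secreted proteins, named for a pair of adjacent cysteines, that guide leukocytes along gradients through G-protein-coupled CCR receptors. Colony-stimulating factors are secreted ligands that make myeloid precursors survive, divide and mature. Epithelial cells, those of the mammary gland among them, make members of both families, and many of these genes are switched on by interleukin-1, tumour necrosis factor and NF-kB. Of 7 genes chosen to represent them here (CCL2, CCL5, CCL20, CCL28, CSF1, CSF2 and CSF3), 6 had at least 1 probe set whose only gene symbol in the platform annotation was theirs, and these 6 genes were read by 13 of 54675 probe sets. CCL20 lies on chromosome 2, CCL28 on chromosome 5, CSF1 on chromosome 1, and CCL2, CCL5 and CSF3 on chromosome 17. CSF2, the granulocyte-macrophage factor, is not analysed here. The same annotation gave 19775 genes a probe set of their own.

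The samples were total RNA from the MCF10A line, breast epithelial cells of human origin that do not form tumours, in 2 groups of 3. The shFRY samples came from 1 puromycin-selected clone carrying a stably transfected shRNA against FRY, which encodes a large microtubule-associated protein, and the control samples from 1 puromycin-selected clone carrying a non-targeting shRNA. Per the labels, FRY in the shFRY clone was about 60% below its level in MCF10A cells. Both clones grew as monolayers to 70% confluence in a basal medium to which hydrocortisone (5 ug/ml), insulin (10 ug/ml), EGF (20 ng/ml) and pituitary extract of cattle had been added. Within each clone the 3 samples were of different passages, so every p-value below measures only the spread between samples of 2 single clones, and clone and shRNA cannot be told apart. The comparison asks which genes differ in level between shFRY and control cells.

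All values are log2 signals from RMA, in which each unit of difference is a factor of 2 in signal. Sample medians lay between 3.02 and 3.04 in shFRY and between 3.05 and 3.06 in control samples. Signal was lower in shFRY than in control at all 4 FRY probe sets and passed the threshold, a limma adjusted p under 0.05, at 1 of them (204072_s_at, -0.75, SE 0.19, limma adjusted p = 0.0223). The beta-actin 3' minus 5' difference, a measure of RNA length and of amplification, was 2.87 ± 0.03 in shFRY and 2.52 ± 0.19 in control samples (SD, n = 3 each). The groups did not overlap, which in a two-sided exact permutation test gives p = 0.1, the lower limit for groups of 3, and this measure runs along with every difference between the groups given here. For GAPDH the 3' minus 5' difference was -0.07 ± 0.03 in shFRY and -0.09 ± 0.01 in control samples (SD, n = 3 each). The groups overlapped there (exact permutation test, p = 0.4), so the 2 measures differ on this point. Epithelial markers were bright in both groups: the 7 measured markers had values between 7.72 and 12.07, with the epithelial adhesion gene EPCAM at 10.04 to 10.10 in shFRY and 10.07 to 10.09 in control samples. All 12 measured leukocyte markers had means over all 6 samples below the median of all probe set means, 3.04. In control samples alone the PTPRC mean was 3.19. The summed level of the 12 markers was 26.0 to 28.5 in shFRY and 26.7 to 27.1 in control samples. Of these markers 1 passed as higher (LAPTM5, 0.38) and 1 as lower (PTPRC, -1.06), against 13.7% higher and 16.0% lower over all genes. The mean of all PTPRC probe sets differed by -0.24 and did not pass, and the LAPTM5 call was lost in 4 of 6 fits that left out 1 sample, those without control sample 1 or 3 or shFRY sample 1 or 2 (limma adjusted p up to 0.109). With the beta-actin difference as a covariate both calls were lost, PTPRC at -0.24 (limma adjusted p = 0.623) and LAPTM5 at 0.26 (limma adjusted p = 0.590).

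Of the 13 probe sets, 4 rose and 3 fell in shFRY cells. Over all 54613 probe sets other than controls, 23.1% passed in either direction, 10.9% as higher and 12.2% as lower. The rises were in CCL20, CSF3 and CCL5, the falls were the 3 probe sets of CCL28, and no probe set of CCL2 or CSF1 passed. Groups did not overlap at the same 7 probe sets, against 39.2% of all probe sets. Probe sets of 1 gene share their target, so the 13 are not 13 independent readings. With 1 probe set per gene, the brightest, CCL20 and CSF3 rose and CCL28 fell, 3 of 6 genes, against 29.8% of all 19775 genes.

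**Figure D1:**
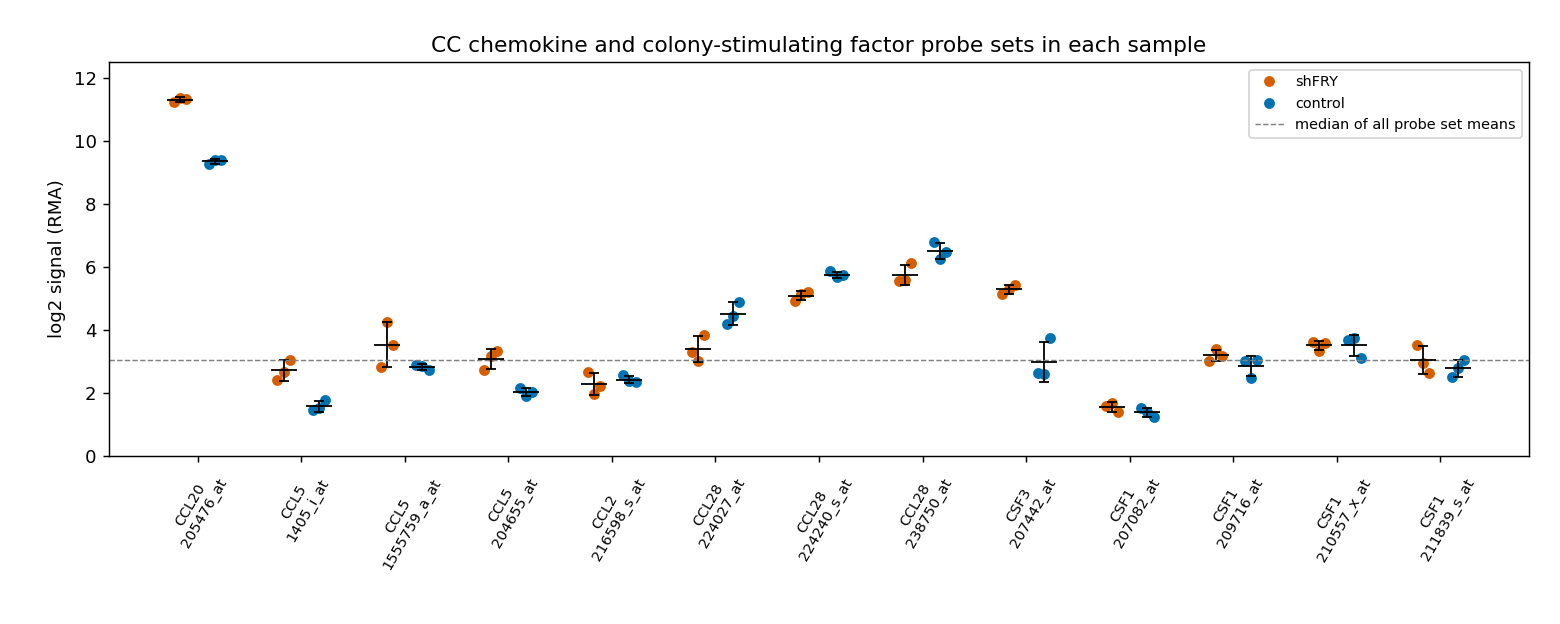
Log2 RMA signal (vertical axis) at each of the 13 probe sets (horizontal axis) in the 3 shFRY samples (orange) and the 3 control samples (blue). Black bars are the mean and SD, and the dashed line is the median of all probe set means, 3.04. CCL20 and CSF3 lie higher in all shFRY samples, CCL28 lies lower at its 3 probe sets, and CCL2 and CSF1 overlap between the groups.

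**Figure D2:**
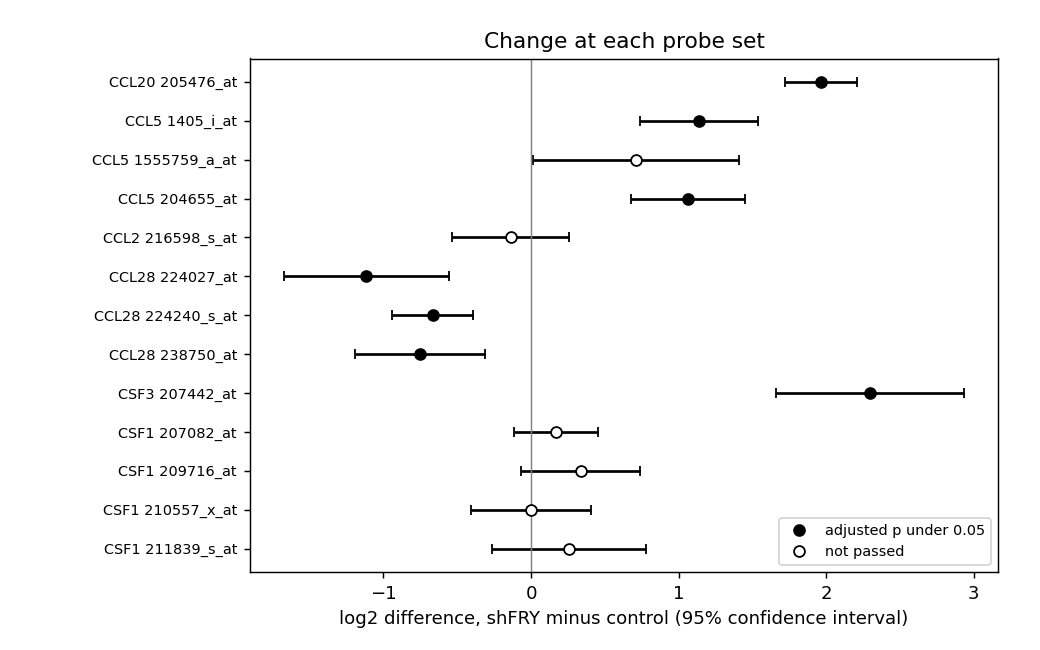
Log2 difference, shFRY minus control, at each probe set with its 95% confidence interval from limma. Filled points passed an adjusted p of 0.05: CSF3 at 2.30, CCL20 at 1.97, 2 of 3 CCL5 probe sets near 1.1, and the 3 CCL28 probe sets between -0.67 and -1.12.

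CCL20, the ligand of CCR6 that attracts dendritic cells, Th17 cells and B cells to epithelia, was 3.90-fold higher in shFRY cells. Its only probe set, 205476_at, read 11.23, 11.37 and 11.35 in the shFRY samples, against 9.26, 9.41 and 9.39 in the control samples. The gap of 1.82 between the lowest shFRY and the highest control sample was far wider than the range within either group. The log2 difference was 1.97 (SE 0.11) with a limma adjusted p of 1.32e-05, and the 95% confidence interval of the fold change was 3.30 to 4.61. CCL20 was already bright in control cells, where its mean lay at percentile 95.2 of all probe sets, and it lay at percentile 99.2 in shFRY cells. Only 163 of the 19775 genes had a larger positive log2 difference. Of the 7 called probe sets it was the 1 that also passed with the beta-actin difference as a covariate (1.85, SE 0.21, limma adjusted p = 0.00836).

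RefSeq promoter windows were available for 2 of the 6 measured genes, CCL20 and CCL28, and all are shown. The CCL20 window is given first. It covers 250 bases before and 50 after the annotated start, at chr2:227813592-227813891 on the plus strand of GRCh38.p14, and capitals mark a match to the kappaB consensus, the site that NF-kB binds, and a TATA box.
CCL20: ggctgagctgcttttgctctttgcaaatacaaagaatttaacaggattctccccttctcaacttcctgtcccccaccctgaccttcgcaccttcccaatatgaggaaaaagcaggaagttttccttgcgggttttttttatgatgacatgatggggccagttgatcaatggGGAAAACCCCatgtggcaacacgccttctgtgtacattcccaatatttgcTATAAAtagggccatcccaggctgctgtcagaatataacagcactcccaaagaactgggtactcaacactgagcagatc
Motifs were searched on both strands: the kappaB consensus by name, the AP-1 site TGANTCA, the C/EBP site TTNNGNAAT and the TATA box TATAAA, none overlapping another here. The kappaB match began 79 bases and the TATA box 29 bases before the start, and the other motifs had no match. Of 35116 promoter windows, 5.91% hold a kappaB match, 7.71% an AP-1 match, 11.0% a C/EBP match and 11.5% a TATA box. A match is a description of the letters and not evidence of binding.

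CCL5, also called RANTES, attracts T cells, monocytes and eosinophils. It was higher in shFRY cells at 2 of its 3 probe sets, all of them dim. Probe set 1405_i_at read 2.41, 2.67 and 3.05 in shFRY samples, against 1.441, 1.504 and 1.761 in control samples, a difference of 1.14 (SE 0.18, limma adjusted p = 0.00225). Probe set 204655_at read 2.72, 3.17 and 3.33 in shFRY samples, against 2.14, 1.89 and 2.01 in control samples, a difference of 1.06 (SE 0.17, limma adjusted p = 0.00251). At both, all shFRY samples lay above all control samples. The third, 1555759_a_at, read 2.81, 4.24 and 3.52 in shFRY samples, against 2.89, 2.83 and 2.70 in control samples, and shFRY sample 1 lay inside the control range. Its difference of 0.71 (SE 0.30) did not pass (limma adjusted p = 0.137), and without shFRY sample 1 it was 1.07 and passed (limma adjusted p = 0.0125). This is the brightest CCL5 probe set, so CCL5 is not among the genes called with 1 probe set per gene, whereas the mean of its 3 probe sets was higher by 0.97 (SE 0.18, limma adjusted p = 0.00393). Control means of the 3 probe sets lay between percentiles 17.1 and 46.6 of all probe sets, and RMA compresses differences at such signals. The shFRY means lay between percentiles 45.2 and 56.3. These values carry no detection call, so it is not shown that CCL5 was above background in either group. With the beta-actin covariate the difference was 0.92 (SE 0.34) at 1405_i_at and 1.23 (SE 0.33) at 204655_at, and neither passed (limma adjusted p = 0.235 and 0.113).

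CCL2, the monocyte chemoattractant that signals through CCR2, showed no detectable difference. Its probe set 216598_s_at read 2.64, 1.97 and 2.22 in shFRY samples, against 2.55, 2.37 and 2.32 in control samples. The control samples lay inside the shFRY range. The difference was -0.14 (SE 0.17, 95% confidence interval -0.53 to 0.26, limma adjusted p = 0.623), and the interval runs between 31.0% lower and 1.20-fold higher in shFRY cells. The group means lay at percentiles 36.9 in shFRY and 39.9 in control samples, and a dim probe set can hide a change.

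CCL28, a mucosal chemokine of glandular epithelia that draws IgA-secreting plasma cells, into the lactating mammary gland for one, through CCR10 and also acts on CCR3, was lower in shFRY cells at each of its 3 probe sets. Probe set 224240_s_at read 4.91, 5.14 and 5.20 in shFRY samples, against 5.86, 5.66 and 5.73 in control samples, a difference of -0.67 (SE 0.12, limma adjusted p = 0.00467). Probe set 238750_at, the brightest, read 5.55, 5.58 and 6.12 in shFRY samples, against 6.78, 6.26 and 6.48 in control samples, a difference of -0.75 (SE 0.19, limma adjusted p = 0.0234). Probe set 224027_at read 3.30, 3.01 and 3.84 in shFRY samples, against 4.17, 4.44 and 4.89 in control samples, a difference of -1.12 (SE 0.24, limma adjusted p = 0.0119). Groups were apart at each, by as little as 0.13 at 238750_at, with the shFRY samples on the low side. These are reductions of 37.0%, 40.7% and 53.9%, with 95% confidence intervals of 23.9% to 47.9%, 19.5% to 56.3% and 32.1% to 68.7%. The call at 238750_at was lost without control sample 1 or 3 or shFRY sample 1 or 2 (limma adjusted p = 0.0866, 0.0589, 0.0747 and 0.0727), while the other 2 probe sets passed in all 6 such fits. With the beta-actin covariate the 3 differences lay between -0.39 and -1.67 and none passed, with limma adjusted p-values of 0.104 to 0.672. RNA of bulk cultures cannot tell fewer CCL28-expressing cells from less CCL28 RNA per cell, and the same holds for every gene here.

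RefSeq gives CCL28 a pair of start sites, both on the minus strand of chromosome 5 in GRCh38.p14, and the windows of both are shown. The first is chr5:43412342-43412641 and the second chr5:43397088-43397387, and the only capitals mark a C/EBP match in the second, which begins 181 bases before its start.
CCL28 first window: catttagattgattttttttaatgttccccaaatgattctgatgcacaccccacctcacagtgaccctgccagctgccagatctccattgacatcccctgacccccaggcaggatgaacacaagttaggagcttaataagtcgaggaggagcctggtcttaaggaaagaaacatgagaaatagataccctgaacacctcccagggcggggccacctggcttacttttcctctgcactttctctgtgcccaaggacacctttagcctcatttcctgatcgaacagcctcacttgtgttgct
CCL28 second window: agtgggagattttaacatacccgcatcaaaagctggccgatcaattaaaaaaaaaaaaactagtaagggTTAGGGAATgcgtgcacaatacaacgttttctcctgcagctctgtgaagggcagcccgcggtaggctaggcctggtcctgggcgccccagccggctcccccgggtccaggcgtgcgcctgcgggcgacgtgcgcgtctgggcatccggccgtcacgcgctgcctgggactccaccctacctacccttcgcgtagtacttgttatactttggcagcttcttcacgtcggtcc
Neither window holds the kappaB, AP-1 or TATA letters, which says only that these letters are not in these 300 bases. Windows for CCL2, CCL5, CSF1 and CSF3 were not used here, so CSF3 and CCL5, which also rose, are not set beside CCL20 and CCL28.

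CSF3, the granulocyte colony-stimulating factor that drives neutrophil production and release, had the largest difference of the group. Its only probe set, 207442_at, read 5.13, 5.31 and 5.41 in shFRY samples, against 2.64, 2.60 and 3.72 in control samples. All shFRY samples were higher, and control sample 3 stood 1.09 above the other control samples. The difference was 2.30 (SE 0.28, limma adjusted p = 0.000691), a 4.92-fold increase (95% confidence interval 3.16 to 7.66). The control mean lay at percentile 49.1 and the shFRY mean at percentile 71.3 of all probe sets, a control signal at which RMA compresses differences. These values carry no detection call, so it is not shown that CSF3 was above background in control cells, and the fold change is that of the measured signals. Only 117 of the 19775 genes had a larger positive log2 difference. With the beta-actin covariate the difference was 1.31 (SE 0.37) and did not pass (limma adjusted p = 0.126).

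CSF1, the macrophage colony-stimulating factor, is made as secreted and membrane-bound forms from alternatively spliced RNAs. None of its 4 probe sets passed. The one with the highest mean, 210557_x_at, read 3.61, 3.33 and 3.57 in shFRY samples, against 3.68, 3.73 and 3.11 in control samples, a difference of -0.0033 (95% confidence interval -0.41 to 0.40, limma adjusted p = 0.992). Probe set 209716_at read 3.01, 3.38 and 3.15 in shFRY samples, against 3.01, 2.48 and 3.05 in control samples, a difference of 0.34 (95% confidence interval -0.07 to 0.74, limma adjusted p = 0.220). The other two, 211839_s_at and 207082_at, differed by 0.26 and 0.17 (limma adjusted p = 0.472 and 0.383). The groups overlapped at all 4, where group means lay between percentiles 9.01 and 56.1 of all probe sets. The interval at 209716_at reaches a 1.67-fold increase, so a rise of that size lies within the error of these arrays.

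**Figure D3:**
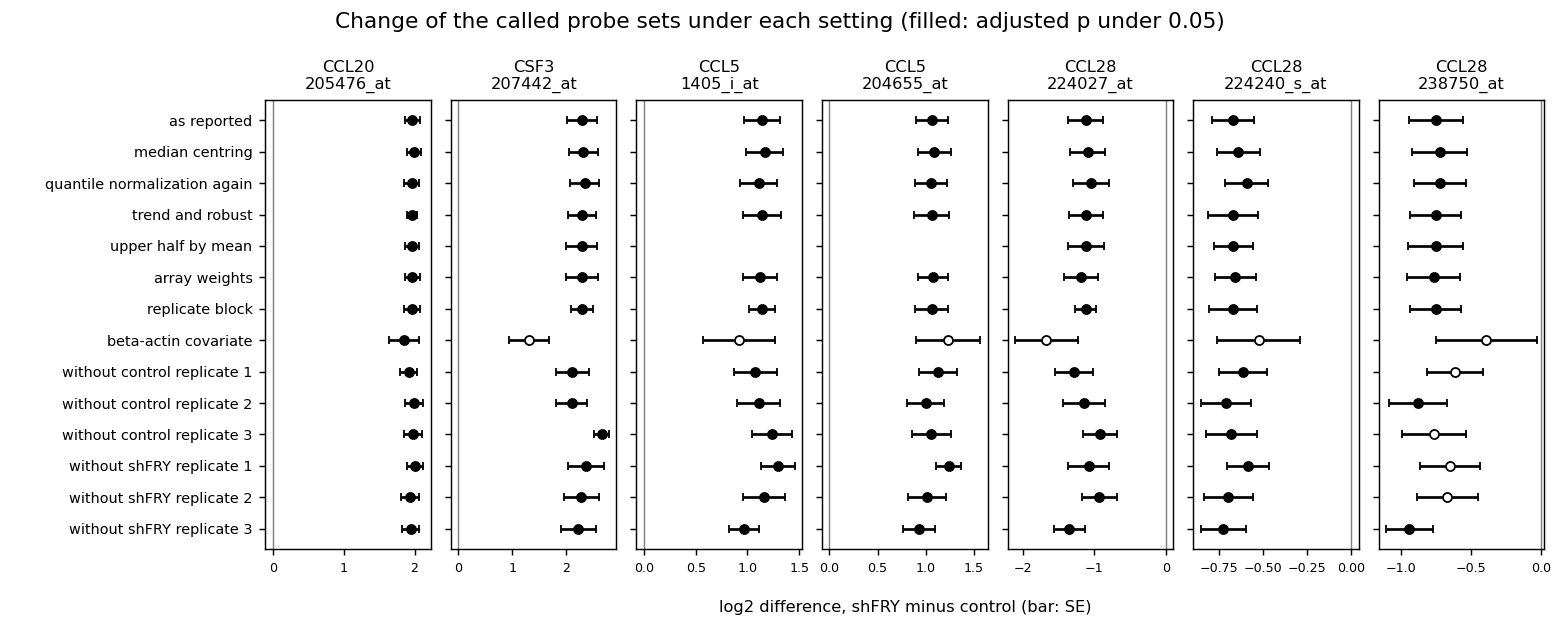
Log2 difference, shFRY minus control, with its SE (horizontal axes, a scale of its own for each panel) at the 7 called probe sets, under the reported setting and each alternative (rows). Filled points passed an adjusted p of 0.05. CCL20 is filled in every row, and with the beta-actin covariate the other 6 are open. The dim CCL5 probe sets have no point where probe sets of low mean were left out.

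Of 16 other CC ligand genes measured 0 passed in limma, with a median log2 difference of -0.01 against 0.03 over all genes. Over all genes, 13.7% passed as higher and 16.0% as lower, and each list count is to be read beside these shares. Only CCL18 among them had an unadjusted p under 0.05 (0.29, limma adjusted p = 0.0913). CCL19 was next at 0.44 (limma adjusted p = 0.128). Without shFRY sample 3 both passed, CCL18 at 0.36 and CCL19 at 0.66 (limma adjusted p = 0.0489 and 0.0102). Of these 16 genes, 15 had a mean below the median of all probe sets.

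Receptors were dim as well. Of 12 measured CC receptor genes, 1 rose and 0 fell (median -0.02), against 13.7% higher and 16.0% lower over all genes. All 12 had means below the median of all probe sets. CCR10, the receptor of CCL28, read 2.47, 3.27 and 2.69 in shFRY samples, against 1.99, 2.13 and 2.39 in control samples. Its difference of 0.64 (SE 0.21) only just passed (limma adjusted p = 0.0474), and the call was lost in 5 of 6 fits that left out 1 sample, all but the one without shFRY sample 1, with adjusted p-values up to 0.155. Of 6 genes for receptors of colony-stimulating factors and their partners, 0 passed in limma (median 0.04), and none had an unadjusted p under 0.05. The macrophage receptor gene CSF1R was at -0.33 (limma adjusted p = 0.267) and CSF2RA, the receptor chain for CSF2, at 0.29 (limma adjusted p = 0.146), which passed without shFRY sample 1 (0.41, limma adjusted p = 0.0449). Of 6 other haematopoietic ligand genes, 0 passed (median 0.20), with 1 unadjusted p under 0.05 in limma: IL34, the other ligand of CSF1R, was at 0.41 (limma adjusted p = 0.1003) and passed without control sample 3 (0.56, limma adjusted p = 0.0308). IL3 was at 0.38 (limma adjusted p = 0.149).

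Of 9 genes that act below these receptors, 3 rose and 0 fell (median 0.22), against 13.7% higher and 16.0% lower over all genes. PIM1, a kinase gene and STAT5 target, averaged 7.70 ± 0.10 in shFRY and 5.63 ± 0.09 in control samples (SD, n = 3 each), a difference of 2.07 (limma adjusted p = 7.50e-06). SOCS2, a feedback inhibitor of cytokine receptors, rose by 1.83 (limma adjusted p = 1.68e-05) and STAT5A, a transcription factor activated by these receptors, by 0.64 (limma adjusted p = 0.0058).

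Of 17 genes for inducing cytokines and their receptors, 5 rose and 2 fell (median 0.18), against 13.7% higher and 16.0% lower over all genes. IL1A, which encodes interleukin-1 alpha, averaged 8.06 ± 0.34 in shFRY and 3.04 ± 0.07 in control samples (SD, n = 3 each), a difference of 5.02 (limma adjusted p = 1.21e-06). It rests on an _s_at probe set: without probe sets ending in _s_at or _x_at another stood for IL1A, at 0.06, and the mean of its probe sets was at 2.54. IL1RAP, the accessory chain of interleukin-1 receptors, rose by 1.62 and IL1B by 1.59. IL1R1, an interleukin-1 receptor gene, fell by 0.95 and only just passed (limma adjusted p = 0.0498). IL17RA, the receptor chain through which interleukin-17 induces CCL20 and CSF3, fell by 1.11 (limma adjusted p = 0.00104), with 6.60, 6.41 and 6.83 in shFRY samples, against 7.77, 7.48 and 7.93 in control samples.

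Of 19 genes for transcription factors known to act on chemokine and colony-stimulating factor promoters, 16 rose and 0 fell, with a median of 1.24 against 0.03 over all genes, where 13.7% passed as higher and 16.0% as lower. All 5 NF-kB subunit genes rose, by 0.68 (RELA), 0.92 (RELB), 1.14 (NFKB1), 1.51 (REL) and 2.43 (NFKB2). For NFKB2 the limma adjusted p was 1.04e-05 and the values were 6.91, 6.95 and 7.15 in shFRY samples, against 4.35, 4.69 and 4.68 in control samples. That is an _s_at probe set: NFKB2 differed by 0.76 without _s_at and _x_at types and by 1.11 as the mean of its probe sets, and passed in both. FOS (1.82), FOSL2 (1.64) and JUN (1.64) of the AP-1 family rose as well. The 3 that did not pass were NFATC1 (0.29), NFATC2 (-0.08) and SP1 (-0.08). Like the other lists, this one was written with earlier results of these samples known, so its direction is not independent evidence.

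Messages of colony-stimulating factors and chemokines carry AU-rich elements or stem-loops that RNA-binding proteins read. Of 9 measured genes for such proteins, 3 rose and 1 fell (median 0.20), against 13.7% higher and 16.0% lower over all genes. ZC3H12C, of the Regnase family of RNases, averaged 8.68 ± 0.14 in shFRY and 5.50 ± 0.39 in control samples (SD, n = 3 each), a difference of 3.18 (limma adjusted p = 1.86e-05). ZFP36, which encodes tristetraprolin and speeds the decay of AU-rich messages, rose by 1.24, and its relative ZFP36L1 by 0.90, or by 0.47 as the mean of its probe sets. ELAVL1, which encodes the stabilising protein HuR, fell by 0.97 (limma adjusted p = 0.00796).

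Of 7 genes for proteases that shed or trim these ligands, 2 rose and 0 fell (median 0.03), against 13.7% higher and 16.0% lower over all genes. ADAM17, the sheddase of membrane-bound CSF1, rose by 0.66 (8.90 ± 0.08 in shFRY and 8.24 ± 0.05 in control samples, SD, n = 3 each, limma adjusted p = 0.00138). MMP3, which cleaves several CC chemokines, rose by 1.70 to 3.46 ± 0.21 in shFRY samples, against 1.77 ± 0.33 in control samples (SD, n = 3 each). Among the called genes named from these lists, IL1R1 aside, CCR10, STAT5A, IL17RA, ELAVL1, ADAM17, RELA and RELB did not pass with the beta-actin covariate, with limma adjusted p-values of 0.823, 0.114, 0.0804, 0.128, 0.147, 0.130 and 0.380.

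**Figure D4:**
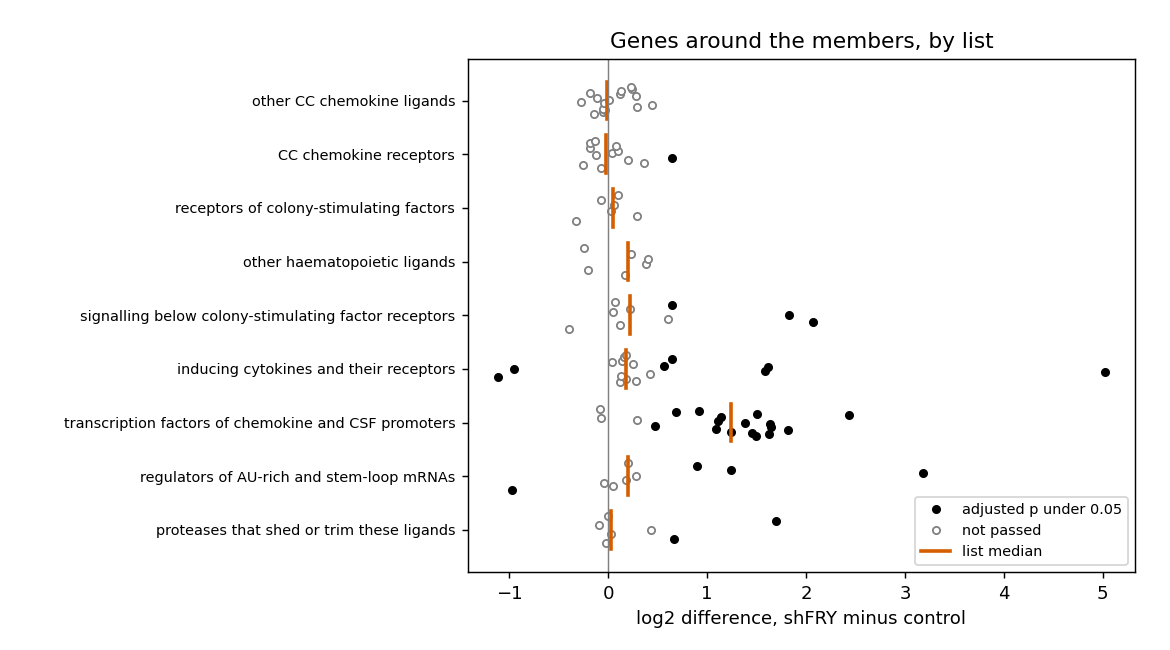
Log2 difference, shFRY minus control (horizontal axis), of each measured gene in the 9 lists around the chemokines and colony-stimulating factors (rows). Filled points passed an adjusted p of 0.05, and orange bars are list medians. Points of the ligand and receptor lists crowd around 0, and 16 of 19 transcription factor genes are filled and to the right.

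The markers of other cell types that could hold these ligands or receptors were set beside these results. Their counts stand against 13.7% of all genes passing as higher and 16.0% as lower. Of 8 fibroblast markers, 0 rose and 3 fell, LUM (-3.94), DCN (-2.79) and COL3A1 (-1.82), and their summed level was 22.3 to 23.3 in shFRY and 29.8 to 32.2 in control samples. When probe sets ending in _s_at or _x_at were left out, LUM was at -0.02, COL3A1 at 0.39 and DCN at -1.45, and DCN passed. As means of probe sets LUM was at -1.98, DCN at -1.54, COL3A1 at -0.89 and the endothelial marker TEK at 0.97. Of 6 endothelial markers, TEK rose (1.85) and KDR fell (-2.45), and the summed level was 19.8 to 21.9 in shFRY and 21.0 to 22.0 in control samples. Their part in the changes of CCL20, CCL5, CCL28 and CSF3 was not tested. Of 7 epithelial markers, 3 rose, KRT14 (2.92), ITGA6 (0.62) and CDH1 (0.37, limma adjusted p = 0.0346), and 2 fell, KRT8 (-0.93) and KRT18 (-0.37). The KRT18 call was lost in 5 of 6 fits that left out 1 sample, all but the one without control sample 2 (limma adjusted p up to 0.0830). With the beta-actin covariate COL3A1, TEK, ITGA6, KRT8 and KRT18 did not pass, and LUM, DCN, KDR and KRT14 did.

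Of the 60 nearest measured genes, 5 on each side of each of the 6 members in RefSeq order, 8 rose and 7 fell, with a median of 0.03. Over all 19775 genes, 13.7% passed as higher and 16.0% as lower. CCL2 sits in a cluster of CC chemokine genes, and 0 of its 10 neighbours passed in limma, CCL7, CCL8, CCL11 and CCL1 among them (none of the 10 with an unadjusted p under 0.05). Near CCL20, PID1 rose by 5.83 at the third place beyond it, while the genes directly on either side of CCL20 were at 0.10 and 0.18. Near CCL5, the metalloprotease gene MMP28 rose by 3.17 at the fourth place before it, and the genes directly on either side were at 0.08 and -0.09. As means of their probe sets PID1 was at 2.61 and MMP28 at 1.64, and both passed. Directly beside CCL28, the cholesterol synthesis gene HMGCS1 fell by 2.05, and TMEM267 on the other side was at -0.08 (limma adjusted p = 0.687). Of the 10 neighbours of CCL28, 2 rose and 3 fell. Beside CSF3, ORMDL3 fell by 1.23, as did PSMD3 and MED24, the genes directly on either side, by 0.54 and 0.78, in the cells in which CSF3 rose. Of the 10 neighbours of CSF3, 3 fell and 1 rose, THRA at the second place beyond CSF3 (0.66, limma adjusted p = 0.0298). With the beta-actin covariate ORMDL3, PSMD3 and MED24 did not pass (limma adjusted p = 0.185, 0.114 and 0.185). The genes directly beside a member, the NF-kB subunits other than NFKB2, EPCAM, CDH1, IL1R1, THRA and the 3 factors that did not pass were named after their values were seen.

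**Figure D5:**
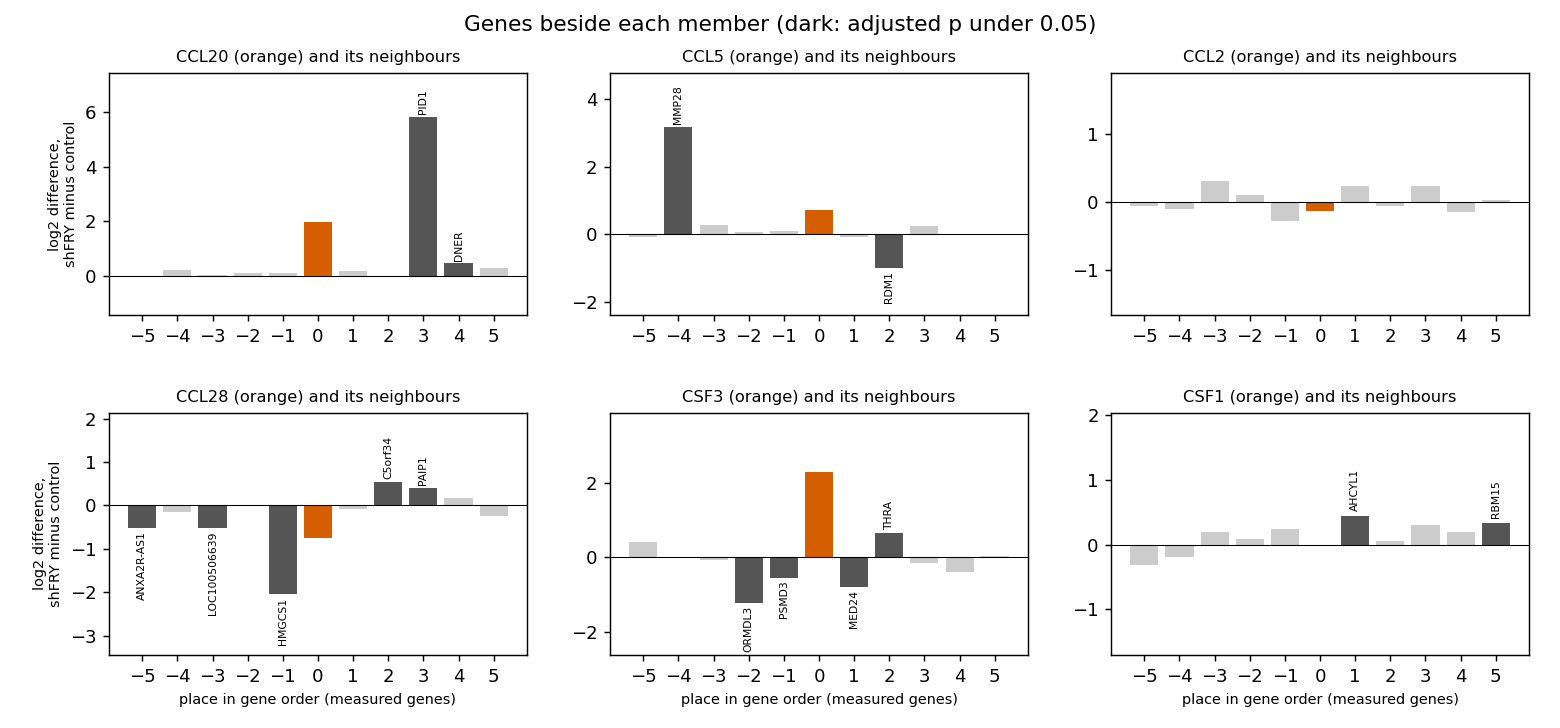
Log2 difference, shFRY minus control (vertical axes), of each member (orange, place 0) and of the 5 nearest measured genes on each side in gene order (horizontal axes). Dark bars passed an adjusted p of 0.05 and are named. PID1 and MMP28 are the tallest neighbours, and PSMD3 and MED24 point down on either side of CSF3.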

How the data were processed

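Total RNA (40 ng per sample) was amplified, biotin-labelled and hybridised to 1 Affymetrix array per sample, 3 shFRY and 3 control. The deposited values are log2 signals per probe set made with RMA, per the submitters' processing notes; background correction, quantile normalization and probe summary are thus already in them, and scanner files were not used here. Array data give no read depth, and the number of arrays limits precision. Of 54675 probe sets, 62 are array controls, 41091 have 1 gene symbol in the platform annotation, 1801 several and 11721 none; of the 41091, 41037 were matched to RefSeq by Entrez number. Member probe sets came from a limma 3.58.1 fit (R 4.3.3, lmFit and eBayes, 4 residual degrees of freedom) over 54613 probe sets. Genes, lists and neighbours came from a second fit over 19775 genes, each read by its probe set of highest mean. P-values were adjusted by Benjamini-Hochberg over all features of the fit, at a threshold of 0.05. Exact permutation tests used scipy 1.17.1 in Python 3.11.15. Fits were tested on simulated data with 200 changed features each, far fewer than were called in these data. The probe set fit recovered 9 of 65 changes of 1.5-fold, 31 of 70 of 2-fold and 58 of 65 of 4-fold. The gene fit recovered 19 of 62, 53 of 71 and 62 of 67. False calls were 1 of 99 and 4 of 138. Smaller changes were thus often missed in these simulations. The members and lists were chosen with earlier results of these data known. Named were all members, FRY, up to 4 called genes of largest change per list (or the 2 of smallest p), up to 4 called neighbours, and the 3 genes most like each member. Replicate numbers do not pair the samples: deviations of same-numbered samples correlated between -0.0024 and 0.0068. The alternatives were median centring, renewed quantile normalization, trended robust eBayes, a mean filter, array weights, a replicate block and the beta-actin covariate. Further alternatives were leaving out each sample, averaging probe sets and dropping probe sets ending in _x_at or _s_at.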

Additional observations from a re-analysis of the deposited data

How the results depend on the processing

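CCL20 passed under every alternative run. With the beta-actin 3' minus 5' difference as a covariate, 1 member probe set was called higher and 0 lower (limma, adjusted p under 0.05), 1 member gene higher and 0 lower, and 0 genes of the 9 lists lower, with 21 higher, all 21 of them among the 30 called without it; over all features that fit called 1026 genes, against 5889 without the covariate, and 1677 probe sets, against 12617, and the share called higher was 57.6% of called probe sets, against 47.0%. The covariate differs between the groups without overlap, so it takes up part of the group difference. With probe sets of low mean left out, 2 member probe sets were called higher, since CCL5 at 1405_i_at and 204655_at was then not tested. Leaving out 1 sample gave 4 to 5 member probe sets higher and 2 to 3 lower, 2 to 3 member genes higher and 0 to 1 lower (0 without control sample 1 or 3 or shFRY sample 1 or 2), and 27 to 34 list genes higher and 2 to 4 lower. The replicate block changed no member call, with 4 probe sets higher and 3 lower, and called 5330 genes. Signs turned only in values that had not passed, COL3A1 apart, and the cause was not tested: CCL2 was 0.074 with the covariate and -0.32 to 0.016 without 1 sample; CSF1 at 210557_x_at was 0.024 after median centring, 0.063 after renewed quantile normalization, 0.55 with the covariate and -0.20 to 0.11 without 1 sample; CSF1 was 0.19 as the mean of its probe sets and 0.34 without _x_at and _s_at types; CSF1 at 211839_s_at was -0.30 and CSF1R 0.40 with the covariate; CSF2RA was -0.049 as a mean of probe sets; COL3A1 was 0.39 without _x_at and _s_at types. Dim probe sets limit what can be seen of CCL2, CCL5, CSF1 and the receptors.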

Other observations

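The genes whose levels ran most like each member over the 6 samples are given as a description; the samples form 2 groups, so a gene with a large group difference resembles any other such gene. For CCL20 they were the nuclear receptor corepressor gene NRIP1 (Pearson r = 0.9997), the neutrophil chemokine gene CXCL1 (r = 0.9997) and SOD2, the mitochondrial superoxide dismutase gene (r = 0.9996). Their log2 differences were 1.61 for NRIP1, 7.49 for CXCL1 and 2.07 for SOD2, and all passed in limma (adjusted p = 1.94e-05, 9.91e-08 and 5.58e-06). For CSF3 they were RPIA (r = 0.9998), STPG3 (r = 0.9991) and LOC100133920 (r = 0.9988), whose differences of 0.20, 0.18 and 0.44 were much smaller than that of CSF3. For CCL28 they were KCNQ1 (r = 0.995), RPL38 (r = 0.994) and GSTO2 (r = 0.994), with differences of -0.13, -0.12 and -0.20. For CCL5 they were LINC02610 (r = 0.993), PLPP1 (r = 0.991) and LINC01551 (r = 0.991), with differences of 0.27, 0.07 and 0.26. For CCL2 they were ADGRF5-AS1 (r = 0.994), GNB3 (r = 0.992) and CSNK2B (r = 0.990), with differences of -0.12, -0.15 and -0.02. For CSF1 they were CD40 (r = 0.985), ZNF142 (r = 0.981) and CHAT (r = 0.980), with differences of -0.01, 0.01 and 0.03. The genes listed for CCL28, CCL5, CCL2 and CSF1 did not pass in limma, and neither did RPIA and STPG3, listed for CSF3. LOC100133920 passed (limma adjusted p = 0.0110). Each member was read by its brightest probe set, which for CCL5 was 1555759_a_at, where its difference did not pass. All genes here were picked as the highest r among 19775 genes over only 6 samples, so r is no evidence of a link.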
